A study of Mus musculus with 4 samples.

Results

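The interferon-stimulated genes are the transcripts that cells switch on after sensing type I interferon, and 43 of them were followed here in the CD45+ cells of the mouse dura mater. They were taken from a list of gene symbols that was drawn up with earlier results of these data known but has no rule on measured values, and 43 of the 43 were found among the 55401 genes of the deposited tables. All 43 had enough reads to be tested, the lowest value being 153 reads in 1 library, and 19806 genes were tested in total.

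Type I interferons are secreted when sensors such as RIG-I, MDA5, or cGAS recognize viral or misplaced nucleic acid. They bind the receptor made of IFNAR1 and IFNAR2, whose kinases JAK1 and TYK2 phosphorylate transcription factors of the STAT family. STAT2 and IRF9 are parts of the complex ISGF3, which then binds the interferon-stimulated response element in the promoters of its target genes. The products of these genes block viral entry, translation, and replication, and some of them feed back on the pathway. In the meninges, macrophages, monocytes, and plasmacytoid dendritic cells are among the cells known to respond to or to make interferon.

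Male C57BL/6J mice had received 2 μl of an adeno-associated vector into the cisterna magna at 4 wk of age, and both groups carried a vector. The cargo of AAV-mVEGF-C was the full-length mouse growth factor. That of AAV-CTRL was a soluble fusion of immunoglobulin with those domains of VEGFR-3 that leave VEGF-C unbound. Each group had 2 libraries, numbered by experiment 1 or 2 in the sample labels, and each library came from the sorted dural CD45+ cells of a pool of 10 to 12 mice. No mice without vector were analysed here, so the levels below are those of vector-injected animals and the effect of the vector itself cannot be read from them. With 2 pools per group, the p-values measure the spread between pools only. Since these are bulk samples, fewer cells of a type and less RNA per cell cannot be told apart.

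The libraries held 32520649 to 46409685 reads assigned to genes, and 20990 to 37512 genes had a read. AAV-CTRL 1 was the deepest library, had the fewest genes detected, and had the highest summed level of 10 neutrophil markers, at 22501 CPM (counts per 1000000) against 10261 to 15026 in the other 3 libraries. The 7 leukocyte markers, among them *Ptprc*, which encodes CD45, were present in all libraries at a summed 4121 to 4950 CPM. *Vegfc* had 208 and 106 reads in AAV-CTRL 1 and 2 and 65 and 59 reads in AAV-mVEGF-C 1 and 2, so the vector's cargo was not visible as a higher *Vegfc* count in the sorted cells. CPM here were computed after TMM scaling of the library size, and they were compared only within a gene. Wherever values are given per library, those of library 1 precede those of library 2, and the AAV-CTRL libraries are called the controls.

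The element bound by ISGF3 and by related interferon regulatory factors was looked for in the promoters, since many interferon-stimulated genes are known to carry it. RefSeq windows on GRCm38.p6, from 250 bases before to 50 bases after a start site, were at hand for 34 of the 43 members. On either strand, GAAANNGAAA was found in 20 of these 34 members (58.8%) and in 3.99% of all 27025 genes with a window. The longer form GAAANNGAAAC, each match of which also counts as a match of the shorter one, was found in 17 of 34 members and in 0.944% of all genes. TTCNNNGAA, the palindromic gamma-activated site, which may share bases with the other motifs, was found in 12 of 34 members (35.3%) and in 9.55% of all genes. A match of letters is a description and not a bound site.

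Stretches are printed for 8 members with a match that are described by library below, with every match of GAAANNGAAA or GAAANNGAAAC, on either strand, in capitals. Those printed lie wholly before the annotated gene, and the matched stretches of *Gbp2*, *Ifitm3*, and *Eif2ak2*, which reach into it, are not shown. The first 3 belong to the *Ifit* cluster of chromosome 19, and those of *Ifit3* and *Ifit3b* are the same 71 letters at different positions.
Ifit1, chr19:34640778-34640838, + strand: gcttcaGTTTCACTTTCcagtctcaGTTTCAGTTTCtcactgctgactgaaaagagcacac
Ifit3, chr19:34583371-34583441, + strand: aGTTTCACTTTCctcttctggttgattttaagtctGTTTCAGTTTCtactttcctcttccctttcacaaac
Ifit3b, chr19:34607767-34607837, + strand: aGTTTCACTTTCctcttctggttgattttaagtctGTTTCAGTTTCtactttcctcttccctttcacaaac
Isg15, chr4:156200855-156200915, - strand: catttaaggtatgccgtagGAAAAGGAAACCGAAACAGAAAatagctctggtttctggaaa
Oas3, chr5:120777700-120777759, - strand: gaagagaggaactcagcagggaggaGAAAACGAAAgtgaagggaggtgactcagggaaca
Bst2, chr8:71537567-71537627, - strand: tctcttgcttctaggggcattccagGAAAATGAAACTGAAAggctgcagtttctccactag
Rsad2, chr12:26456538-26456597, - strand: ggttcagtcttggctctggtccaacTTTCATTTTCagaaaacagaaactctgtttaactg
Stat2, chr10:128270250-128270310, + strand: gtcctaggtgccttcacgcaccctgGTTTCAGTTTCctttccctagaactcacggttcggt
The windows of 14 members did not hold GAAANNGAAA, among them *Irf7*, *Irf9*, *Samhd1*, *Ifit2*, *Isg20*, *Adar*, *Oasl2*, *Ifi44*, and *Xaf1*, which are described by library as well, and no window was at hand for *Mx1*, *Mx2*, *Oas2*, *Usp18*, *Dhx58*, *Rtp4*, *Zbp1*, *Parp14*, or *Ly6e*.

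The members were expressed at widely different levels in the dural CD45+ cells. In TPM (transcripts per 1000000), the deposited values scaled for gene length, the mean over the 4 libraries ran from 2.14 for *Ifi44* to 388 for *Ly6e*. The median member was at 12.8 TPM, against 3.63 TPM for all tested genes. A mean above 100 TPM was seen for 3 members, 25 lay between 10 and 100 TPM, and 15 were under 10 TPM.

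*Ly6e*, which encodes a surface protein that limits the entry of some viruses, was at 357 and 484 TPM in AAV-CTRL 1 and 2 and at 328 and 383 TPM in AAV-mVEGF-C 1 and 2. *Samhd1*, whose product depletes nucleotides needed for reverse transcription, was at 242 and 195 TPM in AAV-CTRL and at 195 and 199 TPM in AAV-mVEGF-C. *Ifitm3*, a membrane protein that restrains viral fusion, was at 184 and 149 TPM in AAV-CTRL and at 124 and 150 TPM in AAV-mVEGF-C. These 3 genes made up 57.1% of the summed mean TPM of all members, and the groups overlapped for *Ly6e* and *Samhd1* on the CPM scale, as they did for *Ifitm3*.

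The next members in order of mean TPM were much lower and close to each other. *Irf7*, the regulator that amplifies interferon production, was at 32.2 and 48.4 TPM in AAV-CTRL and at 29.1 and 42.0 TPM in AAV-mVEGF-C. *Bst2*, the tether that holds budding virions on the cell and a surface marker of plasmacytoid dendritic cells, was at 24.6 and 56.8 TPM and at 27.4 and 40.3 TPM. *Zbp1*, a sensor of nucleic acid in the Z conformation, was at 34.6 and 35.6 TPM and at 23.6 and 34.6 TPM. The 4 libraries of any of these 3 genes spread over more than the distance between their means of 37.9, 37.3, and 32.1 TPM, so their order is not settled. *Adar*, which edits adenosine in double-stranded RNA, was at 25.8 and 26.4 TPM in the controls and at 21.3 and 23.95 TPM in AAV-mVEGF-C. *Irf9* was at 21.1 and 27.6 TPM and at 22.1 and 24.7 TPM. *Parp14*, an enzyme that attaches ADP-ribose, was at 15.1 and 27.9 TPM and at 18.5 and 20.5 TPM. *Adar*, *Irf9*, *Oasl2*, and *Parp14* followed at means of 24.4, 23.9, 21.7, and 20.5 TPM, again within the spread of their libraries.

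**Figure D1:**
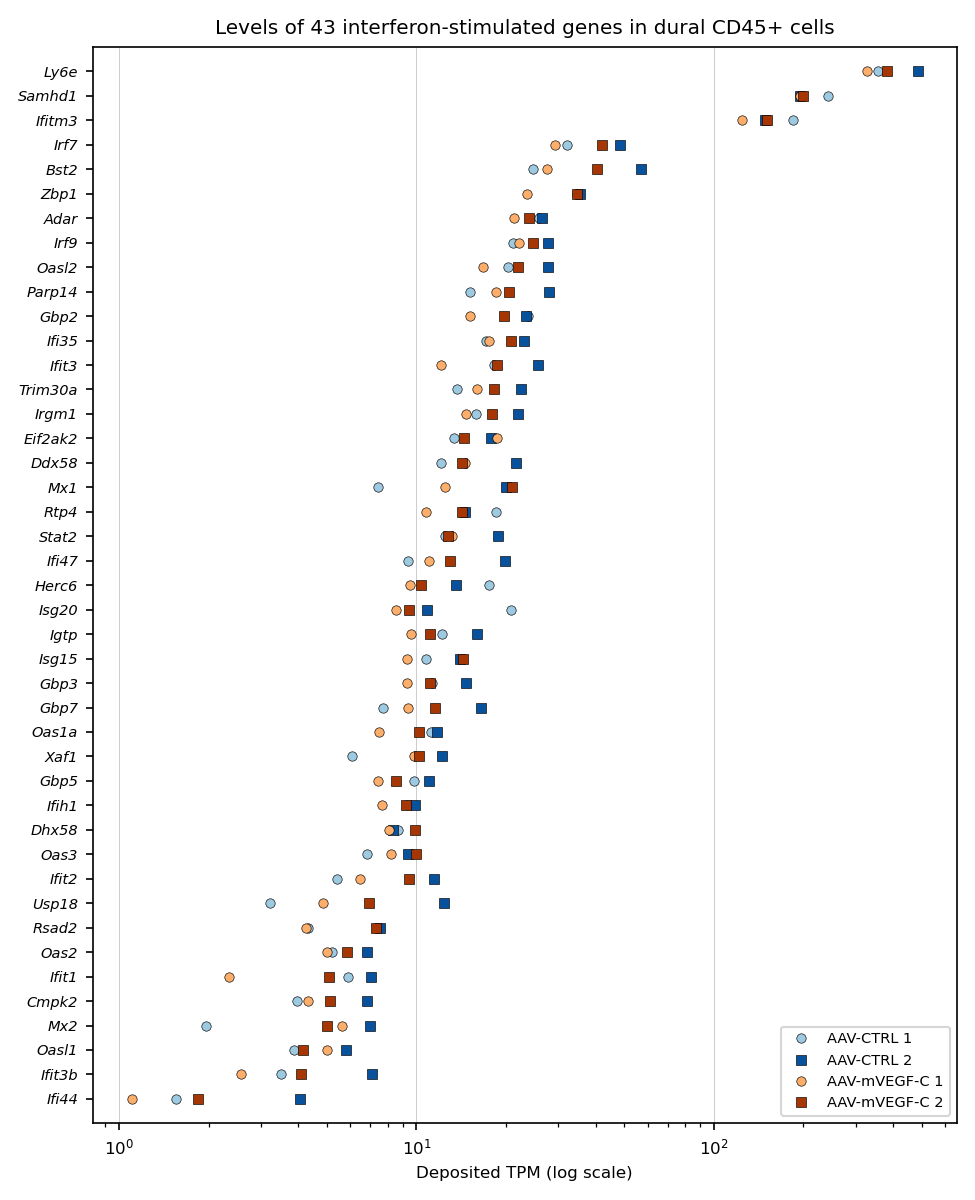
Deposited TPM of the 43 members on a log axis, ordered by their mean, with 1 point per library (blue, AAV-CTRL; orange, AAV-mVEGF-C; circles, experiment 1; squares, experiment 2). *Ly6e*, *Samhd1*, and *Ifitm3* lie above 100 TPM in every library, and for most members the squares lie to the right of the circles of the same group.

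The first question of the design is whether these genes differed between mice given AAV-mVEGF-C and mice given AAV-CTRL. In the quasi-likelihood test of edgeR, with p-values adjusted over all tested genes by the Benjamini-Hochberg method, 0 of 43 members had an adjusted p under 0.05, the smallest adjusted p among them being 0.999, and 0 of all 19806 genes passed (0%). At an unadjusted p under 0.05 there were again 0 of 43 members, against 523 genes in all (2.64%). DESeq2 called 0 of 43 members at an adjusted p under 0.05, where it called 77 genes in all (0.389%), and 0 members at an unadjusted p under 0.05, where 854 of 40674 genes lay (2.1%). The smallest unadjusted p of a member in edgeR was 0.115, for *Isg20*.

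The log2 fold changes of the members, AAV-mVEGF-C minus AAV-CTRL, had a median of -0.08 and ran from -0.67 for *Ifit1* to 0.35 for *Mx1*, and the median of all tested genes was 0.0034. Of the 43 values, 30 were below 0 and 13 above (69.8% below 0, against 49.6% of all tested genes). Of the markers of cells that make or answer interferon, 12 of 12 of macrophages (median -0.24) and 9 of 11 of plasmacytoid dendritic cells (median -0.31) were also below 0, against 5 of 10 of monocytes (median -0.02) and 0 of 9 of dendritic cells (median 0.25), and their part in the lean of the members was not tested. Of the other marker lists, those of erythroid cells (6 of 7 below 0, median -1.79), fibroblasts and osteoblasts (8 of 10, -0.92), B cells (8 of 9, -0.67), mast cells (6 of 7, -0.62), endothelial cells (7 of 8, -0.50), and NK cells (6 of 7, -0.43) had medians below 0. Those of plasma cells (1 of 7, 0.64), T cells (2 of 9, 0.22), neutrophils (2 of 10, 0.09), and the leukocyte list (2 of 7, 0.02) had medians above 0, and their part was not tested either. The split depended on the scale, since 37 of 43 were below 0 when the test was run on log2(TPM + 1), where the median of all genes was -0.08, or on log2(TPM + 0.1), where it was -0.11. It also depended on single libraries. The median of the members was -0.25 without AAV-CTRL 1 and -0.22 without AAV-mVEGF-C 2, but 0.10 without AAV-CTRL 2 and 0.05 without AAV-mVEGF-C 1. The standard error of a member's log2 fold change had a median of 0.21, and the 95% interval lay within a 2-fold change in either direction for 34 of 43 members (79.1%, against 44.9% of all tested genes). The 9 members whose interval reached past 2-fold were *Ifit1*, *Ifit3b*, *Isg20*, *Ifi44*, *Usp18*, *Bst2*, *Mx1*, *Mx2*, and *Xaf1*.

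On the CPM scale, on which overlap is described below unless TPM is named, both AAV-mVEGF-C libraries lay above both AAV-CTRL libraries for 1 member, *Eif2ak2*, against 16.8% of all tested genes. Both lay below for 5 members, *Ifit1*, *Isg20*, *Gbp2*, *Igtp*, and *Ifi44*, against 15.2% of all tested genes. On the deposited TPM the counts were 0 above, against 8.92% of all tested genes, and 11 below (*Ifit1*, *Isg20*, *Gbp2*, *Igtp*, *Gbp3*, *Gbp5*, *Oas1a*, *Herc6*, *Ifih1*, *Adar*, and *Rtp4*), against 28.5% of all tested genes. Neither share of the members exceeded the background of its scale. The summed level of all 43 members was 2890 ± 309 CPM in the controls and 2797 ± 324 CPM with AAV-mVEGF-C (SD, n = 2 in each). The group means lay closer together than the libraries of either group, but means of 2 libraries vary less than single libraries.

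**Figure D2:**
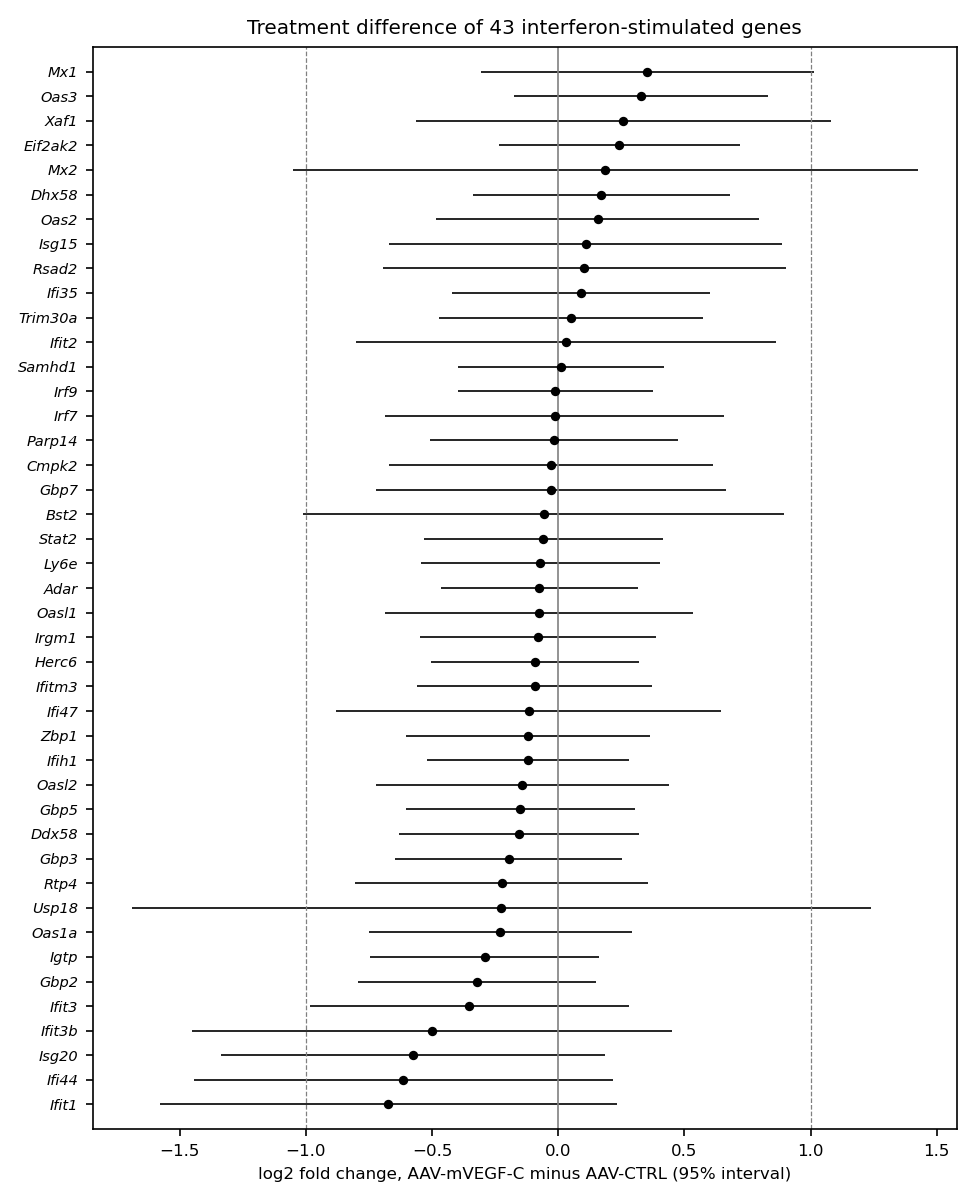
Log2 fold change of each member between AAV-mVEGF-C and AAV-CTRL from edgeR, with its 95% interval, ordered by value (dashed lines, 2-fold). All 43 intervals include 0, and the values run from -0.67 (*Ifit1*) to 0.35 (*Mx1*).

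Among the IFIT proteins, IFIT1 binds viral RNA that lacks the methyl marks of the host cap and blocks its translation. *Ifit1* (chr19:34640871-34650009 in GENCODE M21) was at 19.7 and 21.3 CPM in the controls and at 8.14 and 17.6 CPM in AAV-mVEGF-C. Both AAV-mVEGF-C values were lower, but AAV-mVEGF-C 2 lay nearer to the controls than to AAV-mVEGF-C 1, and the log2 fold change was -0.67 with a standard error of 0.37 and an unadjusted edgeR p of 0.119. Without AAV-mVEGF-C 1 it was -0.21, and without AAV-mVEGF-C 2 it was -1.33. *Ifit3* was at 40.9 and 53.4 CPM in the controls and at 29.2 and 44.7 CPM in AAV-mVEGF-C. *Ifit3b* was at 9.01 and 16.7 CPM and at 7.04 and 11.1 CPM. The groups overlapped for both. These neighbours are near copies: of the 100-base windows of their transcripts, 31.7% of those of *Ifit3* and 27.4% of those of *Ifit3b* occur in the other gene, so the reads assigned to each are uncertain. The log2 fold changes were -0.35 ± 0.26 for *Ifit3*, -0.50 ± 0.39 for *Ifit3b*, and 0.03 ± 0.34 for *Ifit2* (± standard error). Without AAV-CTRL 1 that of *Ifit3b* was -0.90 and that of *Ifit2* -0.37, and without AAV-CTRL 2 they were 0.02 and 0.57. That of *Ifit3* was -0.07 without AAV-mVEGF-C 1 and -0.68 without AAV-mVEGF-C 2.

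Enzymes of the oligoadenylate synthetase family sense double-stranded RNA and make the messenger that activates RNase L. *Oas3* (chr5:120753098-120777661) was at 42.9 and 55.3 CPM in the controls and at 54.5 and 68.8 CPM in AAV-mVEGF-C. The groups overlapped by 1 library of each, and the log2 fold change was 0.33 with a standard error of 0.21 and an unadjusted edgeR p of 0.164. The other 4 members of the family, *Oas1a*, *Oas2*, *Oasl1*, and *Oasl2*, had values between -0.23 and 0.16, each with overlapping groups.

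Among the other antiviral effectors, *Isg20*, *Mx1*, and *Mx2* differed more between the 2 controls than between the group means. *Isg20*, an exonuclease that degrades viral RNA, was at 22.8 and 12.997 CPM in the controls and at 11.3 and 12.8 CPM in AAV-mVEGF-C. AAV-CTRL 1 stood apart from the other 3 libraries, and the log2 fold change of -0.57 ± 0.31 was -0.13 without it. *Mx1*, a gene of the dynamin-like GTPases, was at 24.96 and 42.0 CPM in the controls and at 40.3 and 45.2 CPM in AAV-mVEGF-C. Its relative *Mx2* was at 5.12 and 15.7 CPM in the controls and at 11.1 and 12.6 CPM in AAV-mVEGF-C. Here too AAV-CTRL 1 was the library that stood apart, as the lowest of the 4, and the log2 fold changes of 0.35 ± 0.27 and 0.19 ± 0.51 became 0.0072 and -0.43 without it. Without AAV-CTRL 2, so that AAV-CTRL 1 was the sole control and was assumed to vary like the other libraries, the 3 members *Isg20*, *Mx1*, and *Mx2* passed the adjusted threshold in edgeR, at log2 fold changes of -0.91, 0.79, and 1.22, and so did 2058 of 22401 genes in all. *Ly6e*, *Samhd1*, *Ifitm3*, and *Adar* had log2 fold changes from -0.09 to 0.01. *Eif2ak2*, the kinase PKR that halts translation, was at 37.2 and 49.95 CPM in the controls and at 52.4 and 50.6 CPM in AAV-mVEGF-C, a log2 fold change of 0.24 ± 0.20. That value was 0.03 without AAV-CTRL 1 and 0.48 without AAV-CTRL 2. *Rsad2*, *Cmpk2*, and *Bst2* had values between -0.06 and 0.10. That of *Bst2* was -0.53 without AAV-CTRL 1 and 0.63 without AAV-CTRL 2.

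ISG15 is a ubiquitin-like protein that is attached to other proteins by ligases such as HERC6 and is removed by USP18, which also dampens signaling at the interferon receptor. *Usp18* was at 6.71 and 25.4 CPM in the controls and at 10.6 and 16.9 CPM in AAV-mVEGF-C. The controls were the lowest and the highest library, with both AAV-mVEGF-C libraries between them, and the log2 fold change was -0.22 ± 0.60. It was -0.91 without AAV-CTRL 1, where *Usp18* was the 1 member with an adjusted p under 0.05 in edgeR (0.0466), among 412 of 22284 genes, and 1.04 without AAV-CTRL 2. *Isg15* and *Herc6* had log2 fold changes of 0.11 and -0.09, with overlapping groups.

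The nucleic acid sensors and the signal transducers lay close to 0. *Ifih1* (MDA5), *Ddx58* (RIG-I), *Dhx58* (LGP2), and *Zbp1* lay between -0.16 and 0.17 on the log2 scale. *Irf7*, *Irf9*, and *Stat2* lay between -0.06 and -0.01, all with overlapping groups. *Irf7* was at 73.5 and 105 CPM in the controls and at 69.1 and 108 CPM in AAV-mVEGF-C. In both groups the library of experiment 1 was the lower one. *Stat2* was at 51.4 and 68.9 CPM in the controls, with both AAV-mVEGF-C libraries between them, at 55.9 and 59.6 CPM. *Irf7* shares exonic bases with *Phrf1* on the other strand, and *Irf9* with *Rnf31* on its own strand, and how the counting treated strand is not given in the sources used here.

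The interferon-inducible GTPases act on the membranes of vacuoles that hold parasites or bacteria, and they respond to interferon-γ as well as to type I interferon. The log2 fold changes of 7 of 7 (*Gbp2*, *Gbp3*, *Gbp5*, *Gbp7*, *Igtp*, *Irgm1*, and *Ifi47*) were below 0, also with RLE scaling and on both TPM scales, with a median of -0.15, but 0 of 7 had an unadjusted p under 0.05 in edgeR or DESeq2. With the replicate block 6 of 7 were below 0, and 4 of 7 without AAV-CTRL 2 or without AAV-mVEGF-C 1. *Gbp2* had the lowest of these values and was at 79.3 and 71.6 CPM in the controls and at 51.8 and 69.1 CPM in AAV-mVEGF-C, a log2 fold change of -0.32 ± 0.19. Its value was -0.12 without AAV-mVEGF-C 1 and -0.54 without AAV-mVEGF-C 2. The groups did not overlap, but AAV-mVEGF-C 2 lay nearer to both controls than to AAV-mVEGF-C 1.

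Of the remaining induced genes, *Ifi44*, the least expressed member, was at 5.73 and 7.76 CPM in the controls and at 3.92 and 4.89 CPM in AAV-mVEGF-C, a log2 fold change of -0.61 ± 0.34 with an unadjusted edgeR p of 0.120. *Xaf1*, an antagonist of the apoptosis inhibitor XIAP, was at 7.78 and 14.2 CPM in the controls and at 12.1 and 14.2 CPM in AAV-mVEGF-C, a log2 fold change of 0.26 ± 0.34. That of *Xaf1* was -0.13 without AAV-CTRL 1 and 0.76 without AAV-CTRL 2. The groups did not overlap for *Ifi44* and overlapped for *Xaf1*. *Parp14*, *Trim30a*, *Ifi35*, and *Rtp4* lay between -0.22 and 0.09.

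Most members shared an order of libraries that did not follow the groups. Within AAV-CTRL, library 2 was higher than library 1 for 34 of 43 members, and within AAV-mVEGF-C, library 2 was higher than library 1 for 41 of 43. Library 2 was higher in both groups for 32 members (74.4%), against 27.2% of all tested genes, and library 1 was higher in both groups for 0 members, against 21.7% of all tested genes. This comparison by experiment number was chosen after the values had been seen, and it uses the numbers of the sample labels, from which the column labels of the tables differ. Both experiment 2 libraries lay above both experiment 1 libraries, whatever the group, for 29 members, against 18.8% of all tested genes. AAV-CTRL 2 was the highest library for 27 members, and AAV-mVEGF-C 1 or AAV-CTRL 1 the lowest for 21 and 19.

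The difference was above 0 at the median in both groups. The median difference between experiment 2 and experiment 1 in log2(CPM + 1) was 0.36 in AAV-CTRL and 0.26 in AAV-mVEGF-C for the members, and 0.07 and 0.00077 for all tested genes. Without regard to sign, the median difference between the 2 libraries of a group was 0.38 in AAV-CTRL and 0.26 in AAV-mVEGF-C, and that between the group means was 0.12. For all tested genes these values were 0.35, 0.19, and 0.19. For the members, the value between the group means was smaller than that within either group. Means of 2 libraries vary less than single libraries and average over the experiment numbers, so this order alone does not measure the treatment difference. The number of members higher in experiment 2 in both groups was 32 of 43 with RLE scaling, against 26.0% of all tested genes, and 31 of 43 on the deposited TPM, against 31.6%.

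**Figure D3:**
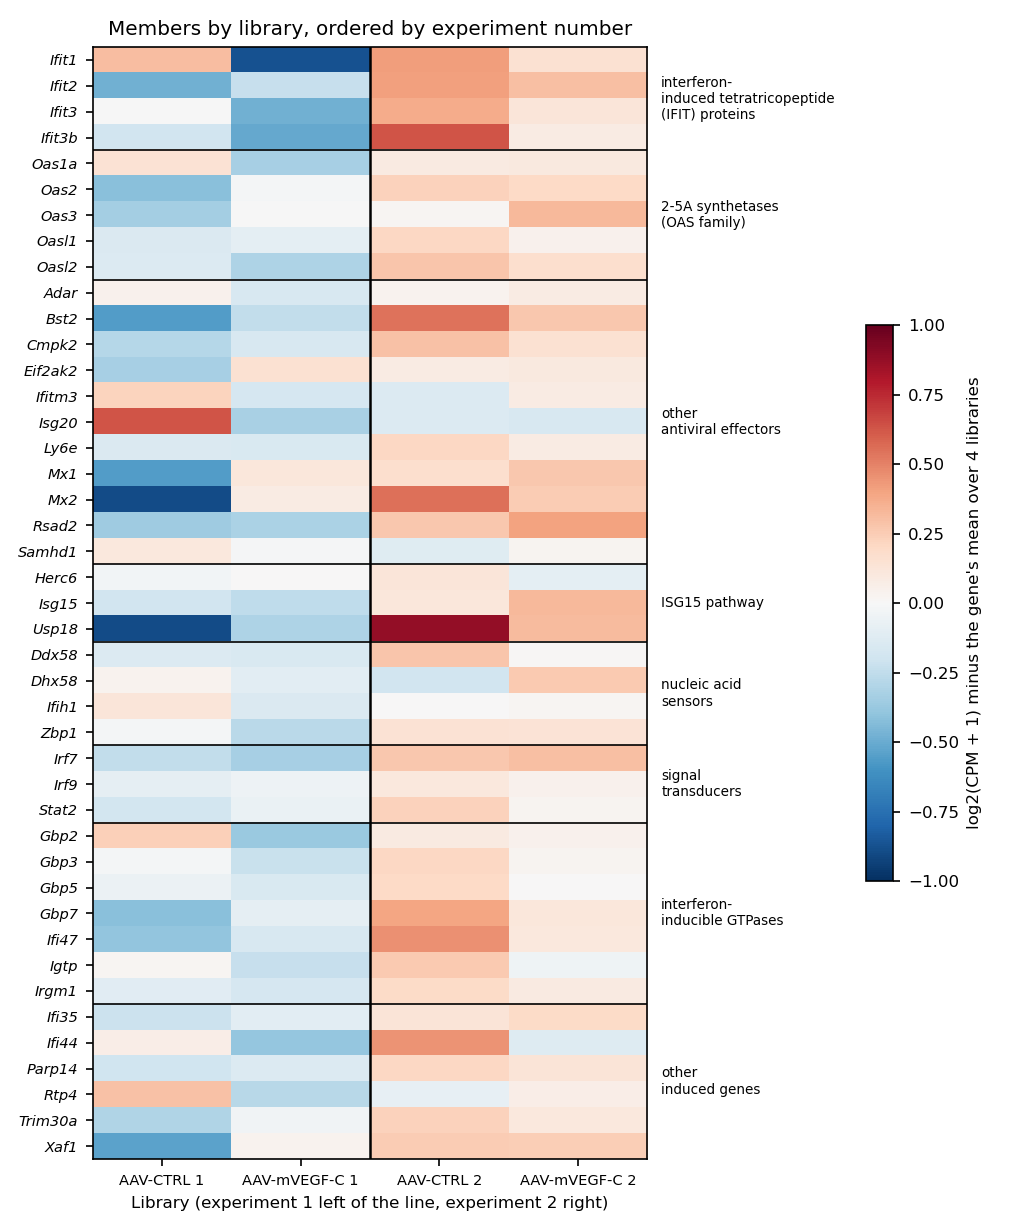
Level of each member in each library as log2(CPM + 1) minus the gene's mean over the 4 libraries, grouped by role, with the libraries of experiment 1 left of the thick line and those of experiment 2 right of it. Most rows are blue on the left and red on the right, whichever vector was given, with *Isg20*, *Samhd1*, and *Ifitm3* among the rows that are not.

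In an edgeR quasi-likelihood fit with treatment and experiment number as terms, 0 of 43 members had an adjusted p under 0.05 for the experiment number, as did 0 of all 19806 genes (0%), and the smallest adjusted p of a member was 0.9995. At an unadjusted p under 0.05, 9 of 43 members were higher in experiment 2, against 2.15% of all tested genes. DESeq2 gave 0 members at an adjusted and 6 at an unadjusted p under 0.05, against 29 of 21335 genes with an adjusted p (0.136%) and 679 of 40674 genes with an unadjusted p (1.67%). The log2 difference between experiment 2 and experiment 1 had a median of 0.33 for the members and of 0.05 for all tested genes, and 39 of 43 members were above 0. No member therefore passed the adjusted threshold for the experiment number, and the pattern rests on the count of members that lay on the same side. All members were read in the same libraries, so they are not independent of each other and the count is a description.

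The 9 genes with an unadjusted p under 0.05 were *Usp18*, *Bst2*, *Ifit2*, *Rsad2*, *Irf7*, *Ifit3b*, *Ifit3*, *Ifi47*, and *Oasl2*. *Usp18* had the largest difference of all members, 1.30 ± 0.35 on the log2 scale (unadjusted edgeR p of 0.00797), from the values given above. *Bst2* was at 21.3 and 46.9 CPM in the controls and at 26.7 and 38.7 CPM in AAV-mVEGF-C, a log2 difference of 0.84 ± 0.23. *Ifit2* was at 27.0 and 50.9 CPM in the controls and at 32.4 and 47.2 CPM in AAV-mVEGF-C, a difference of 0.73 ± 0.20. For both genes the experiment 2 libraries lay above the experiment 1 libraries of either group. *Rsad2*, which encodes viperin, an enzyme that makes a chain-terminating nucleotide, was at 21.5 and 33.7 CPM in the controls and at 22.1 and 37.1 CPM in AAV-mVEGF-C, a difference of 0.70 ± 0.20. *Oasl2* was at 46.2 and 61.8 CPM and at 40.7 and 57.1 CPM, a difference of 0.45 ± 0.19. *Isg15* itself was at 7.94 and 10.0 CPM and at 7.58 and 11.8 CPM, a difference of 0.49 ± 0.29. For *Rsad2* and *Isg15*, but not for *Oasl2*, the experiment 1 libraries of the groups lay closer together than those of experiment 2.

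The remaining 11 members were higher in experiment 2 in 1 of the groups only. For 9 of them, *Oas1a*, *Isg20*, *Samhd1*, *Adar*, *Ifitm3*, *Ifih1*, *Dhx58*, *Gbp2*, and *Rtp4*, the higher libraries were AAV-CTRL 1 and AAV-mVEGF-C 2. For *Eif2ak2* and *Herc6* they were AAV-CTRL 2 and AAV-mVEGF-C 1. *Samhd1* was at 564 and 480 CPM in the controls and at 519 and 534 CPM in AAV-mVEGF-C, and *Ifitm3* at 128 and 99.9 CPM and at 97.6 and 116 CPM. These 2 of the 3 most abundant members thus did not take part in the order by experiment, whereas *Ly6e* did, at 447 and 570 CPM and at 445 and 523 CPM.

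**Figure D4:**
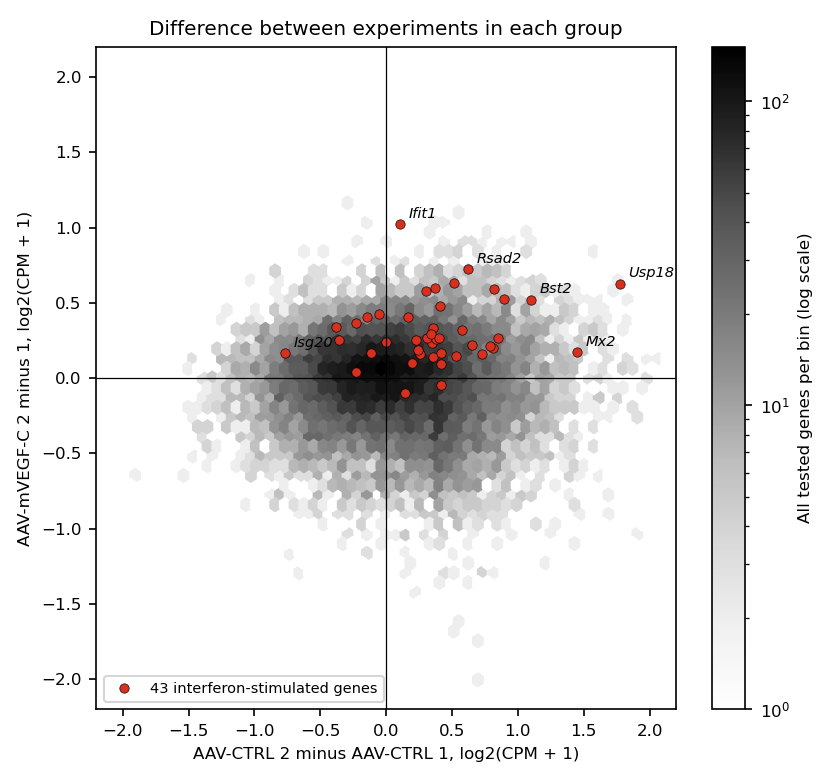
Difference between experiment 2 and experiment 1 in log2(CPM + 1), within AAV-CTRL on the x axis and within AAV-mVEGF-C on the y axis, for the 43 members (red) and all tested genes (grey, genes per bin on a log scale, 138 genes outside the axes not drawn). The upper right field, higher in experiment 2 in both groups, holds 32 of the 43 members and none lies in the lower left field.

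By role, the IFIT genes were higher in experiment 2 in both groups for 4 of 4 members and the signal transducers for 3 of 3. The count was 6 of 7 for the interferon-inducible GTPases, 4 of 5 for the oligoadenylate synthetases, and 5 of 6 for the other induced genes. It was 6 of 11 for the other antiviral effectors, 2 of 3 for the ISG15 pathway, and 2 of 4 for the nucleic acid sensors. Differences between these groups were not tested, and the share of all tested genes was 27.2%. Of the 20 members with GAAANNGAAA in the promoter window, 15 were higher in experiment 2 in both groups, and so were 10 of the 14 members whose window lacked it. The median log2 fold change between AAV-mVEGF-C and AAV-CTRL was -0.11 for those with the letters and -0.05 for those without.

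Other features of the libraries moved with the experiment number. The libraries of experiment 1 were the deeper ones in both groups, with 46409685 against 33336026 reads in AAV-CTRL and 38051943 against 32520649 reads in AAV-mVEGF-C. Of 12 macrophage markers, among them *Mrc1*, *Cd163*, *Lyve1*, and *C1qa*, 12 were higher in experiment 2 in both groups, and their summed level was 3378 and 5280 CPM in the controls and 2721 and 4160 CPM in AAV-mVEGF-C. Of 11 markers of plasmacytoid dendritic cells, 9 were higher in experiment 2 in both groups, with summed levels of 505.5 and 710 CPM and of 512 and 565 CPM. Markers of fibroblasts and osteoblasts followed with 9 of 10, at 658 and 1054 CPM and at 358 and 554 CPM. None of these markers was at 0 in any library, except for 1 of the fibroblast and osteoblast list.

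The lists of other cell types varied. The count of markers higher in experiment 2 in both groups was 6 of 9 for B cells, 6 of 7 for erythroid cells, 5 of 7 for plasma cells, 4 of 7 for NK cells, 3 of 9 for dendritic cells, 2 of 10 for monocytes, and 2 of 8 for endothelial cells. It was 0 of 10 for neutrophils, 0 of 9 for T cells, 0 of 7 for mast cells, and 1 of 7 for the leukocyte list. The part of macrophages, of plasmacytoid dendritic cells, and of depth in the order of the interferon-stimulated genes was not tested.

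**Figure D5:**
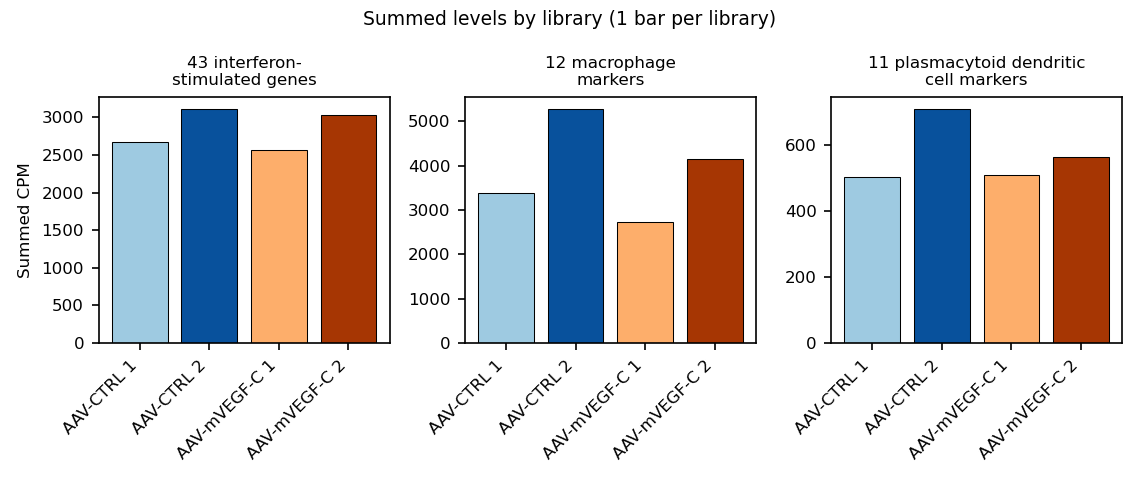
Summed CPM per library of the 43 members, of 12 macrophage markers, and of 11 markers of plasmacytoid dendritic cells (bars from 0, 1 bar per library). In all 3 panels library 2 is higher than library 1 within each group, with 2672, 3109, 2568, and 3026 CPM for the members.

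The type I and type III interferons were close to undetectable. The 18 type I interferon genes in the tables had 23, 9, 28, and 20 reads together in AAV-CTRL 1, AAV-CTRL 2, AAV-mVEGF-C 1, and AAV-mVEGF-C 2, and 14 of them had a read in some library. *Ifnb1* had 0 and 0 reads in AAV-CTRL and 4 and 5 reads in AAV-mVEGF-C, and the 23 reads of AAV-CTRL 1 all belonged to *Ifna11*. A count of 0 allows up to 3 reads, or 0.0671 to 0.0947 CPM in these libraries, a limit that covers counting error only. None of the 18 genes had enough reads to be tested, and differences between them were not detectable at this depth. The type III genes *Ifnl2* and *Ifnl3* had 0 reads in all libraries. *Ifng*, the type II interferon, was at 8.12 and 7.71 CPM in the controls and at 5.22 and 7.29 CPM in AAV-mVEGF-C, a log2 fold change of -0.34 ± 0.31.

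The receptor genes were well expressed in all libraries. *Ifnar1* was at 149 and 148 CPM in the controls and at 145 and 155 CPM in AAV-mVEGF-C. *Ifnar2* was at 108 and 102 CPM and at 80.4 and 101 CPM. The log2 fold changes were 0.01 ± 0.15 and -0.21 ± 0.17, with 95% intervals of -0.35 to 0.37 and -0.63 to 0.22. Neither gene was higher in experiment 2 in both groups. *Tlr9*, the endosomal sensor of DNA, was at 43.3 and 80.9 CPM in the controls and at 62.2 and 65.1 CPM in AAV-mVEGF-C, and *Tlr7*, the sensor of single-stranded RNA, at 40.5 and 48.2 CPM and at 37.9 and 40.7 CPM. Their log2 fold changes were 0.04 ± 0.30 and -0.17 ± 0.17.

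Of the 40 tested genes of the wider pathway (receptors, kinases, regulatory factors, sensors, and negative regulators), 20 had log2 fold changes above 0 and 20 below, with a median of -0.0030. Of 110 further interferon-stimulated genes that are no members, 45 were above and 65 below 0, with a median of -0.07. None of these 150 genes passed the adjusted threshold in edgeR or DESeq2 (0 in each), and 1 had an unadjusted p under 0.05 in edgeR. This was *Trim30b*, at 21.1 and 15.9 CPM in the controls and at 27.1 and 27.8 CPM in AAV-mVEGF-C, with a log2 fold change of 0.57 ± 0.21 and an unadjusted edgeR p of 0.0349. Its relative among the members, *Trim30a*, had a log2 fold change of 0.05. Of the 150 genes, 67 (44.7%) were higher in experiment 2 in both groups, which lies between the 27.2% of all tested genes and the 74.4% of the members.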

How the data were processed

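Sorted dural CD45+ cells were sequenced as 4 libraries (100-base paired reads, stranded total RNA libraries of the SMARTer pico kit). The authors deposited estimated counts per gene without normalization, 8.18% of which were not whole, and TPM of the same genes, which sum to 1000000 per library. The submitters' processing notes name FastQC, Trimmomatic, DRAGEN, Picard, and mm10, and the strand setting and annotation of the counting are not given in the sources used here. Estimated counts were rounded and tested in edgeR 4.0.16 (R 4.3.3; glmQLFit, TMM, filterByExpr at its defaults, no covariate) over all genes. The standard error is the log2 fold change divided by the square root of F. Alternatives were DESeq2 1.42.0, the study's tool, limma-trend (limma 3.58.1) on log2(TPM + 1) and log2(TPM + 0.1), RLE scaling, other filters, a replicate block, and each library left out. The fits were tested on simulated data.

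The members and all gene and marker lists were chosen with earlier results of these data known. Given with values per library were the members with an unadjusted p under 0.05 for treatment (there were 0), the 10 with the highest mean TPM, the 3 with the largest log2 fold change in each direction, *Ifit3* with *Ifit3b*, the 3 between which the controls differ most, and, of the other lists, genes with an unadjusted p under 0.05, the interferon genes, *Ifnar1*, *Ifnar2*, *Tlr9*, and *Tlr7*. 1 further gene under this rule is not reported here. *Ifit2*, *Rsad2*, *Isg15*, *Gbp2*, *Eif2ak2*, *Stat2*, and the split by experiment number were chosen after their values were seen. Gene positions come from GENCODE M21 (GRCm38), which holds 54349 of the 55401 identifiers with the same version, and 41 of the 43 members. By exons, 9 members overlap a gene on the other strand and 7 a gene on the same strand. Promoter windows are RefSeq's.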

Additional observations from a re-analysis of the deposited data

How the results depend on the processing

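Every statement on single members rests on 2 pools per group. The number of members with an adjusted p under 0.05 was 0 with RLE scaling, without a filter on low counts, with at least 10 reads in every library, in DESeq2, on both TPM scales, and with the replicate block. Members with an unadjusted p under 0.05 numbered 0, but 2 without a filter (*Ifit1* and *Isg20*) and 1 with the replicate block (*Ifit1*). There was also 1 on log2(TPM + 1) and 1 on log2(TPM + 0.1) (*Herc6* in both). Among all genes, 1327 of 40674 had an unadjusted p under 0.05 without a filter and 525 of 19806 with the replicate block. On log2(TPM + 1) and log2(TPM + 0.1) these were 902 and 884 of 19806. With each library left out in turn, 0 to 3 members had an adjusted and 0 to 11 an unadjusted p under 0.05, and 0 to 6 of the other interferon pathway genes had an adjusted p under 0.05. The lone library of a group was then assumed to vary like the others. The number of members whose groups did not overlap was 6, and 11 on the deposited TPM, all of them lower with AAV-mVEGF-C, as were 28.5% of all tested genes. The cause was not tested. Of all tested genes, the 0 with an adjusted p under 0.05 became 268 without a filter, 77 in DESeq2, 11 with the replicate block, and 2 to 2058 with a library left out. Of 516 log2 fold changes of members under these alternatives, 457 stayed within 1 standard error of the reported value. On the experiment number, 0 members had an adjusted p under 0.05 under each of 5 alternatives chosen after seeing the data, and 6 to 11 an unadjusted one, against 0 to 29 and 582 to 798 of all genes.

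The experiment numbers of the labels were taken as shared numbers and not as pairs, since the column labels number the pools differently. The deviations of same-numbered libraries from their group means correlated at -0.04 over all tested genes and at 0.20 over the 43 members on log2(CPM + 1), and at -0.13 over all tested genes on edgeR's log CPM. A crossed replicate block, added after seeing the data, called 0 members and 54 genes in all.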
